A study of Mus musculus with 4 samples.

Results

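The 9 genes described here carry the exchange between glucose, glycogen and pyruvate in the hepatocyte. They are G6pc, Pck1, Fbp1 and Fbp2 of gluconeogenesis, Pklr of glycolysis, Gys2, Ppp1r3c and Ppp1r3g of glycogen synthesis, and Txnip, which restrains glucose uptake. They are 9 of the 54464 genes in the deposited single-nucleus RNA-Seq (snRNA-Seq) count matrix, and they were chosen on their values in hepatocyte nuclei of HNKO and WT mice, so their hepatocyte levels are given as a description with no test. Each gene was described across the authors' hepatocyte clusters and by genotype, with counts summed per mouse.

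Liver nuclei came from 3 WT and 3 HNKO mice. All 6 mice carried floxed Nampt alleles on the C57BL6/BomTac background, and HNKO mice also carried Alb-Cre, in which the albumin promoter drives Cre recombinase in hepatocytes, so WT here means floxed littermates without Cre and not an unmodified strain. Per the study's methods the mice had eaten a purified control diet for 6 weeks. The cohort described with that feeding time was of females aged 8 to 12 weeks when feeding began. In that cohort bile was collected under isoflurane before the mice were killed, and its part in the values below was not tested. Some of its mice drank nicotinamide riboside, and the methods do not state whether any of these 6 did. WT and HNKO are the genotypes that the authors' table assigns to each hashtag, and mice are numbered by hashtag name only. Nampt makes nicotinamide mononucleotide, a precursor of NAD+, from nicotinamide.

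The liver keeps blood glucose steady between meals by releasing glucose from glycogen and by making it from lactate, glycerol and amino acids. Gluconeogenesis runs through phosphoenolpyruvate carboxykinase (Pck1), fructose 1,6-bisphosphatase (Fbp1 in liver, Fbp2 mainly in muscle) and glucose 6-phosphatase (G6pc), which frees glucose for export. Fasting signals that act through glucagon, cAMP and glucocorticoids raise transcription of Pck1 and G6pc, and insulin lowers it. Feeding favours liver pyruvate kinase (Pklr) and glycogen synthase 2 (Gys2), and the targeting subunits Ppp1r3c and Ppp1r3g bring protein phosphatase 1 to glycogen, where it activates glycogen synthase. Txnip binds thioredoxin and limits glucose entry, and its transcription follows glucose through the carbohydrate-responsive factor Mlxipl. In the lobule, gluconeogenesis is known as a periportal function and glycolysis as a pericentral one.

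Of 5193 nuclei, 4410 were hepatocytes in 13 clusters, with 562 to 847 hepatocyte nuclei, 3524497 to 6635290 unique molecular identifiers (UMIs) and a median of 3572 to 5786 UMIs per nucleus in each mouse. In 9 of the 13 clusters over 90% of nuclei came from 1 mouse. HNKO 3 stood apart from the other mice, with a trimmed mean of M-values (TMM) scaling factor of 1.28 where the others lay between 0.917 and 1.01, and with 49.0% of its hashtag counts on its own hashtag where the others had 66.1% to 80.3%. The paper reports that cells of most of its HNKO mice lay apart from the rest. It also reports that HNKO hepatocytes were parted to some extent by the necrosis score of the liver. Scores per mouse were not used here, and their part in the values below was not tested. The summed level of 7 hepatocyte markers was 9182 to 11038 CPM (UMIs scaled to a common library total) in hepatocyte nuclei of the WT mice and 5823 to 9278 CPM in those of the HNKO mice, with every marker detected in each mouse. Marker sums, cluster sums and levels in Central and other nuclei are such plain CPM. Levels of single genes per mouse are TMM-scaled as well, unless stated. In the same hepatocyte sums 11 periportal markers came to 2556 CPM in HNKO 3 and to 4499 to 6214 CPM in the other mice, and 11 pericentral markers to 1420 to 1930 CPM over all mice. The 6 cholangiocyte markers summed to 614 CPM in HNKO 1 and 496 CPM in HNKO 3, against 294 to 337 CPM in the other mice, with 1 to 3 of the 6 at 0. The 6 stellate markers summed to 195 and 123 CPM in HNKO 1 and 3 and to 31.6 to 90.4 CPM in the others, while endothelial, Kupffer and CD45 markers stayed at or under 43.9 CPM in every mouse. The part of these markers in the values below was not tested. Nampt itself was at 92.2, 109 and 104 CPM in hepatocyte nuclei of WT mice 1 to 3 and at 92.3, 148 and 71.5 CPM in those of HNKO mice 1 to 3. The labels do not say which exons were floxed, and 3′ counts can come from outside a deleted stretch, so this level does not check the genotypes.

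The genes lie on 6 chromosomes of the GRCm38 build and all code for protein. G6pc spans chr11:101367561-101377903 on the plus strand, Pck1 chr2:173153048-173159273 on the plus strand and Pklr chr3:89136142-89146784 on the plus strand. Txnip spans chr3:96557957-96561883 on the plus strand and Gys2 chr6:142422613-142473109 on the minus strand. Fbp1 (chr13:62864753-62888282) and its paralog Fbp2 (chr13:62836877-62858422) are neighbours on the minus strand, Ppp1r3g spans chr13:35958839-35970388 on the plus strand and Ppp1r3c chr19:36731731-36736653 on the minus strand.

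The promoters of Pck1, Ppp1r3c and Txnip are shown because these 3 genes carry the contrasting patterns below: Pck1 was far lower in 1 HNKO mouse, Ppp1r3c far higher in that mouse, and Txnip lower in all 3. Each line gives the 100 bases from 150 to 51 before the RefSeq start on GRCm38.p6, written 5′ to 3′ on the gene's strand, with matches to the motifs searched in capitals.
Pck1 (chr2:173152923-173153022, plus strand): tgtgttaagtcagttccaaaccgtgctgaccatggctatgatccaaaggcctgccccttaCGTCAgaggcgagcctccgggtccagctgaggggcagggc
Ppp1r3c (chr19:36736655-36736754, minus strand): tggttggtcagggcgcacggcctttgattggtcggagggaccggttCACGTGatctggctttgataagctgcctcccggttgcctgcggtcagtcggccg
Txnip (chr3:96557807-96557906, plus strand): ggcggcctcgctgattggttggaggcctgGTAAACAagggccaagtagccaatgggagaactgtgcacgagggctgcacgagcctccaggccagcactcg
In Pck1 the capitals mark TGACG, the first bases of a cAMP response element, on the opposite strand at 90 to 86 bases before the start. In Ppp1r3c they mark CACGTG, an E-box, at 104 to 99 bases before the start, and in Txnip the forkhead core GTAAACA at 121 to 115 bases before it.

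Promoter windows of 300 bases (250 before to 50 after the start) were on hand for 8 of the 9 genes, all but Gys2, and were searched on both strands. TGACG occurred in 3 of the 8 (Pck1, Fbp2 and Ppp1r3g) and in 20.8% of all 32851 promoters. CACGTG occurred in 2 of the 8 (Ppp1r3c and Fbp2) and in 7.15% of all promoters, and GTAAACA in Txnip and in 3.65% of all promoters. The full element TGACGTCA, which contains TGACG, was in none of the 8 and in 1.79% of all promoters. A pair of exact CACGTG copies with 5 bases between them was in none of the 32851. Inexact pairs were not searched, so this does not show that a gene lacks a site for Mlxipl. The Txnip line above holds an inexact pair at this spacing, which the search did not count. These matches describe letters in the windows and say nothing of binding.

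Among the gluconeogenic enzymes, G6pc and Pck1 stood lowest in HNKO 3. G6pc was at 2153, 1465 and 1350 CPM in hepatocyte nuclei of WT mice 1 to 3 and at 1417, 783 and 218 CPM in HNKO mice 1 to 3. HNKO 1 lay inside the WT range, HNKO 2 below it and HNKO 3 far below it, at 7.59-fold under the WT mean. HNKO over WT gave a log2 fold change of -1.04 ± 0.59 (SE, n = 3 mice per genotype), and -0.58 without HNKO 3.

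Pck1, which makes phosphoenolpyruvate from oxaloacetate, was at 3457, 3627 and 3273 CPM in WT mice and at 2633, 2980 and 403 CPM in HNKO mice. All HNKO mice lay below all WT mice, but HNKO 1 and 2 were within 1.31-fold of the WT mean while HNKO 3 was 8.57-fold under it. This gave a log2 fold change of -0.78 ± 0.63 (SE), and -0.29 without HNKO 3. The level of HNKO 3 rested on 2812 UMIs.

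Fbp1 and Fbp2 did not move alike. Fbp1, the liver bisphosphatase, was at 618, 656 and 448 CPM in WT mice and at 386, 528 and 617 CPM in HNKO mice. After TMM scaling these groups overlapped, with HNKO 3 as high as WT 1, and the log2 fold change was -0.17 ± 0.26 (SE). Without TMM scaling HNKO 3, with 4305 Fbp1 UMIs, was at 783 CPM, above the WT range of 419 to 631 CPM. Fbp2 was at 42.9, 40.2 and 35.3 CPM in WT mice and at 21.7, 30.3 and 0.430 CPM in HNKO mice, with a log2 fold change of -1.18 ± 0.88 (SE) and -0.59 without HNKO 3. HNKO 3 held 3 Fbp2 UMIs against 131 to 182 in each other mouse, so its ratio to the WT mean was 1.09% with an exact Poisson 95% interval of 0.225% to 3.18%. Intervals here cover counting error only.

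Pklr converts phosphoenolpyruvate to pyruvate and so opposes Pck1. After TMM scaling it was the one enzyme with HNKO mice on either side of the WT range. Its levels were 145, 105 and 95.9 CPM in WT mice and 53.1, 239 and 163 CPM in HNKO mice. HNKO 1 was 2.17-fold under the WT mean and HNKO 2 was 2.07-fold above it. The log2 fold change of 0.39 ± 0.47 (SE) turned to -0.09 without HNKO 2.

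Of the genes of glycogen synthesis, Gys2 and Ppp1r3g were lower in every HNKO mouse than in any WT mouse, and Ppp1r3c was higher in HNKO 3. Gys2, the liver glycogen synthase, was at 1649, 1714 and 1565 CPM in WT mice and at 842, 1247 and 379 CPM in HNKO mice. Its HNKO levels lay 1.95-fold, 1.32-fold and 4.34-fold under the WT mean, all below the lowest WT mouse. A log2 fold change of -1.00 ± 0.41 (SE) resulted, and of -0.65 without HNKO 3.

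Ppp1r3g, a glycogen-targeting subunit whose expression follows the cycle of fasting and feeding, was at 52.1, 41.6 and 58.9 CPM in WT mice and at 34.9, 30.4 and 3.44 CPM in HNKO mice. Again no HNKO mouse reached the lowest WT mouse, and HNKO 3, with 24 UMIs, was 14.8-fold under the WT mean. Its log2 fold change was -1.15 ± 0.65 (SE), and -0.63 without HNKO 3.

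Ppp1r3c, the related subunit also called protein targeting to glycogen, went the other way. It was at 14.2, 10.3 and 18.3 CPM in WT mice and at 13.7, 10.6 and 76.5 CPM in HNKO mice. HNKO 1 and 2 lay inside the WT range and HNKO 3 lay 5.37-fold above the WT mean. The log2 fold change of 1.24 ± 0.72 (SE) therefore turned to -0.22 without HNKO 3.

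Txnip had the smallest SE among the 5 genes whose genotypes did not overlap. It was at 122, 90.5 and 95.4 CPM in WT mice and at 47.0, 52.9 and 26.7 CPM in HNKO mice. Every HNKO mouse was below every WT mouse, at 2.19-fold, 1.94-fold and 3.85-fold under the WT mean. For Txnip the log2 fold change was -1.28 ± 0.27 (SE), -1.03 without HNKO 3 and between -1.48 and -1.03 over all alternatives tried.

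**Figure D1:**
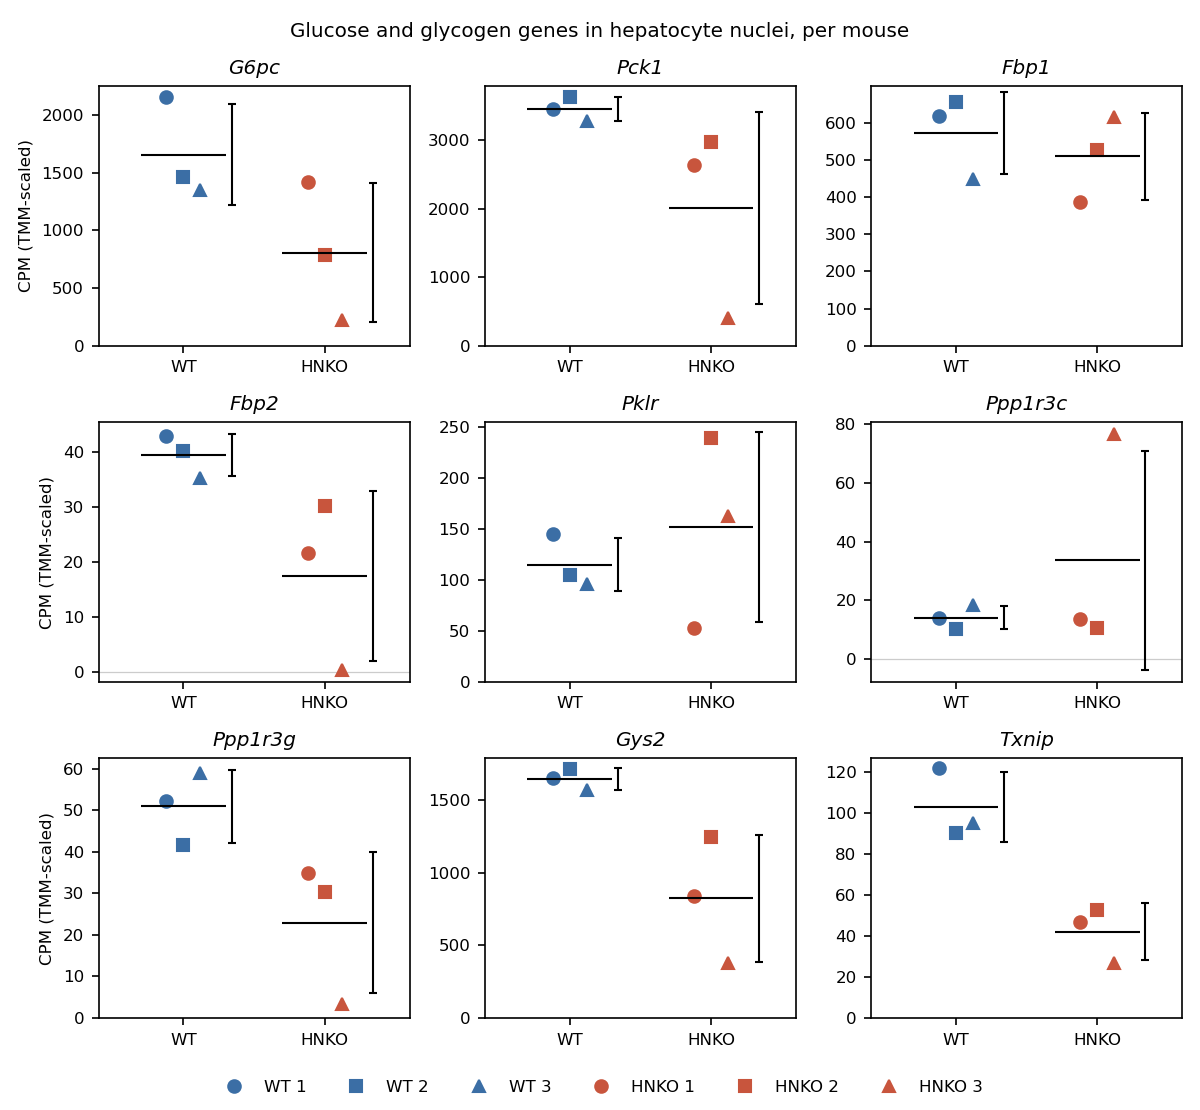
Level of each gene in hepatocyte nuclei (y axis, TMM-scaled CPM) by genotype (x axis), with 1 point per mouse, a line at the mean and a bar of ±1 SD (n = 3 mice per genotype). HNKO 3 (triangle) is lowest for G6pc, Pck1, Fbp2, Ppp1r3g, Gys2 and Txnip and highest for Ppp1r3c at 76.5 CPM, while for Txnip all 3 HNKO mice lie at or under 52.9 CPM and all WT mice at or above 90.5 CPM.

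In all, 5 of the 9 genes (Pck1, Fbp2, Ppp1r3g, Gys2 and Txnip) had every HNKO mouse below every WT mouse, and none had every HNKO mouse above. Over all 11810 genes tested, 5.17% lay wholly below and 6.42% wholly above. Because the genes were chosen on this contrast, nothing is read from the difference between these shares. No gene of the 11810 passed a false discovery rate (FDR) of 0.05 in the edgeR quasi-likelihood test (0%), while 698 (5.91%) had an unadjusted p below 0.05, and DESeq2 on the same sums called 21.

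The departure of HNKO 3 was also counted over all genes, a count added after the data had been seen. HNKO 3 was more than 2-fold lower than each of the other 5 mice for 5 of the 9 genes (G6pc, Pck1, Fbp2, Ppp1r3g and Gys2), against 3.50% of all genes tested. It was more than 2-fold higher than each other mouse for 1 of the 9 (Ppp1r3c), against 1.63% of all genes. HNKO 3 is part of the contrast on which the genes were chosen, so nothing is read from the difference between these shares. For the other 5 mice none of the 9 genes lay outside the range of the remaining mice by that much, and the share of all genes that did so was between 0.0508% and 0.906% per mouse and direction. Without TMM scaling Pck1 of HNKO 3 was at 512 CPM and Gys2 at 481 CPM. The part that the low own-hashtag share of HNKO 3 has in these values was not tested.

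Shares of nuclei with at least 1 UMI were taken after each nucleus had been thinned to 1500 UMIs. Nuclei with a Pck1 UMI made up 98.0%, 98.3% and 98.2% of hepatocytes in WT mice, and 94.9%, 96.2% and 46.2% in HNKO mice. G6pc was seen in 85.9%, 79.4% and 72.4% of WT hepatocyte nuclei and in 71.8%, 60.8% and 27.8% of HNKO ones. Endothelial nuclei held a G6pc UMI in 24.1% to 38.5% among WT and in 11.8% to 19.7% among HNKO mice. The hepatocyte G6pc share of HNKO 3 lay inside the range of WT endothelial nuclei but above its own endothelial share of 14.3% (6 of 42 nuclei). Without thinning 73.7% of HNKO 3 hepatocyte nuclei held a Pck1 UMI and 54.3% a G6pc UMI.

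Gys2 was seen in 81.7% to 83.0% of WT hepatocyte nuclei, against 57.0%, 75.2% and 43.0% in HNKO mice 1 to 3. Txnip was seen in 14.6%, 11.2% and 12.1% of WT hepatocyte nuclei and in 7.27%, 9.29% and 5.56% of HNKO ones. Fbp2 gave a UMI in none of 845 thinned nuclei of HNKO 3, which at a limit of 3 counts of the total allows a share of nuclei with a UMI of up to 0.355% at this thinned depth, and in 2.47% to 5.48% of nuclei in the other mice.

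Ppp1r3c was seen in 10.7% of thinned HNKO 3 hepatocyte nuclei (exact binomial 95% interval 8.65% to 12.9%) and in 1.54% to 2.68% in the other mice. Endothelial nuclei, which are not a known site of hepatic glucose output and serve as a gauge of free hepatocyte RNA, gave a Ppp1r3c UMI in 0% to 4.76% per mouse. The Ppp1r3c shares of the WT mice, HNKO 1 and HNKO 2 were within that range, and no difference among them is read. That range rests on 0 to 2 endothelial nuclei with a UMI per mouse, so it does not settle whether these shares are background. Median depth before thinning was 2444 to 3260 UMIs in endothelial and 3572 to 5786 UMIs in hepatocyte nuclei. For Pck1 the endothelial shares, 24.1% to 42.3% among WT and 19.0% to 29.4% among HNKO mice, were below the hepatocyte share of every mouse, 46.2% or more.

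Pklr was seen in 12.8% to 16.6% of thinned hepatocyte nuclei of WT mice and in 6.91%, 23.3% and 23.6% of those of HNKO mice 1 to 3, with an endothelial share of 3.45% to 11.9% over the 6 mice. The share of HNKO 1 lay inside that endothelial range. Ppp1r3g shares of 0.828% to 5.89% lay inside an endothelial range of 0% to 11.5%. Its upper end came from 3 of 26 nuclei of WT 1 and every other mouse gave 0%, so the range is a poor gauge of background. Without thinning or TMM scaling, mean Ppp1r3g in WT mice was 47.7 CPM in hepatocyte and 18.5 CPM in endothelial nuclei (5 UMIs). In HNKO mice it was at 22.2 and 1.81 CPM (1 UMI in endothelial nuclei). Fbp1 was seen in 44.4% to 53.1% of hepatocyte nuclei of WT mice and in 35.1%, 49.3% and 58.6% of those of HNKO mice 1 to 3. Endothelial Txnip shares, 7.69% to 27.6%, were as high as the hepatocyte ones, and for Txnip this cell type is no gauge of background.

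**Figure D2:**
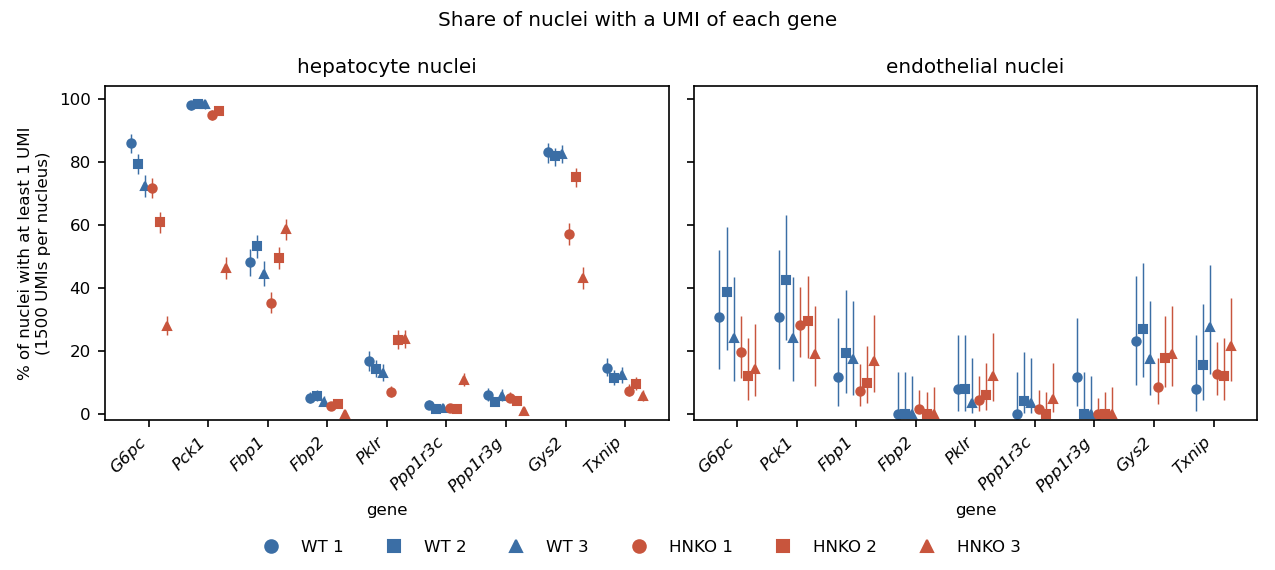
Percentage of nuclei with at least 1 UMI of each gene after thinning to 1500 UMIs per nucleus (y axis) in hepatocyte and endothelial nuclei, with 1 point per mouse and exact binomial 95% intervals as bars. In hepatocytes HNKO 3 (red triangle) is lowest for Pck1 at 46.2% and G6pc at 27.8% and highest for Ppp1r3c at 10.7%, and the endothelial panel gives the level seen outside hepatocytes.

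The pattern of HNKO 3 was present in each of its clusters. The authors' hepatocyte clusters gave 22 sums of at least 20 nuclei from 1 mouse in 1 cluster, given here as CPM of the cluster total. The clusters were made from the same counts, so differences between them are a description. In the 3 clusters of HNKO 3, which the authors named HNKO 2, HNKO 3 and Central HNKO 2, Pck1 lay between 340 and 539 CPM, and in the 19 other sums it lay between 2356 and 3831 CPM. G6pc lay between 102 and 308 CPM in those 3 clusters and between 747 and 2107 CPM in the others.

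Ppp1r3c lay between 62.0 and 178 CPM in the 3 clusters of HNKO 3 and between 0 and 32.1 CPM in the others, so these ranges did not overlap either. Its highest sum, 178 CPM, was in Central HNKO 2. Fbp1 was highest in cluster HNKO 2 of the same mouse, at 836 CPM, and lowest in the Central 1 nuclei of WT 1, at 246 CPM. In Central HNKO 2, where Pck1, G6pc and Gys2 were lowest, Fbp1 was at 497 CPM, near its median of 474 CPM over the 22 sums.

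Pklr had its 2 highest sums in HNKO 2, at 310 CPM in Periportal 1 and 230 CPM in Hepatocytes 2. It was at 195 CPM in Hepatocytes 1 and 104 CPM in Central 1 of that mouse, and at 218, 209 and 150 CPM in the clusters HNKO 3, HNKO 2 and Central HNKO 2 of mouse HNKO 3. In HNKO 1 it was at 52.8 CPM in cluster HNKO 1, 45.9 CPM in Hepatocytes 2 and 22.3 CPM in Central HNKO 1, the lowest of the 22 sums. Txnip ranged from 57.7 to 146 CPM over the WT sums and from 30.6 to 85.2 CPM over the HNKO sums, which overlap.

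**Figure D3:**
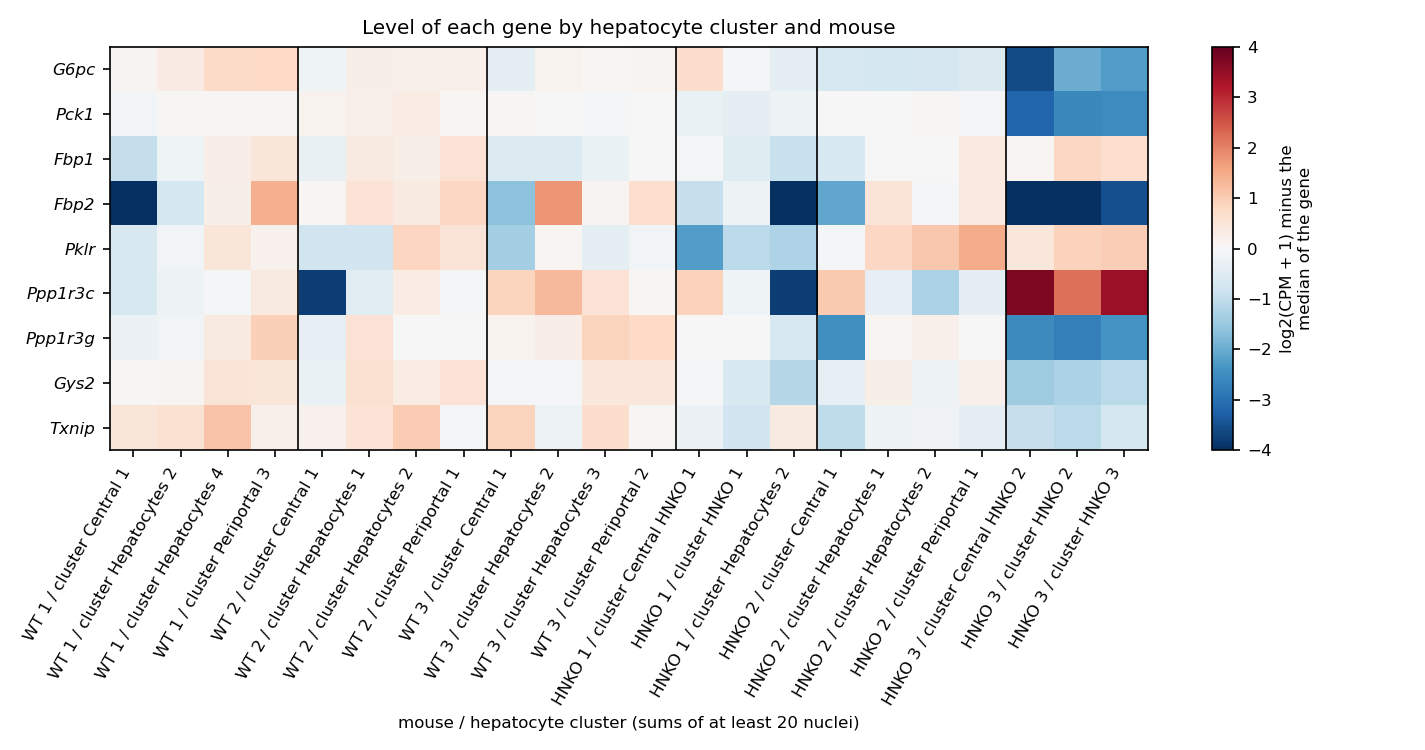
Level of each gene (rows) in 22 sums of 1 mouse and 1 hepatocyte cluster (columns, grouped by mouse), coloured by log2(CPM + 1) minus the median of the gene, with the colour scale cut at ±4. The 3 columns of mouse HNKO 3 at the right are blue for G6pc, Pck1, Fbp2, Ppp1r3g and Gys2 and red for Ppp1r3c in each of its clusters.

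Some clusters held nuclei of both genotypes, which allowed levels to be set side by side among nuclei that the authors placed together. HNKO 2 shared Central 1 and Hepatocytes 2 with all 3 WT mice and Hepatocytes 1 and Periportal 1 with WT 2, and HNKO 1 shared Hepatocytes 2 with the WT mice, which made 5 such pairings. HNKO 3 shared none. G6pc and Gys2 were below the lowest WT mouse of the cluster in 5 of 5 pairings. Pck1, Fbp1, Fbp2, Ppp1r3c, Ppp1r3g and Txnip were so in 3 of 5 each. For Fbp2, Ppp1r3c and Ppp1r3g some of these calls rested on 0 to 3 UMIs of the HNKO mouse. In Hepatocytes 1 and Periportal 1 WT 2 was the only WT mouse, so a small difference could count, such as Fbp2 at 34.5 against 35.4 CPM in Hepatocytes 1. The pairings share mice and are not replicates, and the genes were chosen on this contrast, so these counts are a description. The share over all genes was not counted.

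In Periportal 1, G6pc was at 1408 CPM in WT 2 and at 822 CPM in HNKO 2. Gys2 was at 1658 and 1284 CPM and Txnip at 64.3 and 51.8 CPM in the same nuclei. In Hepatocytes 1, Txnip was at 97.5 CPM in WT 2 and at 57.7 CPM in HNKO 2. Pklr was above the highest WT mouse in 4 of 5 pairings, all of HNKO 2, and below the lowest in the pairing of HNKO 1. In Hepatocytes 1 it was at 64.4 CPM in WT 2 and at 195 CPM in HNKO 2.

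Within each mouse, nuclei of the clusters named Central were compared with all other hepatocyte nuclei. Glul (glutamine synthetase) and Cyp2e1, both pericentral, were higher in the Central nuclei of 6 of 6 mice, and Sds and Hal, both periportal, were lower in 6 of 6. The clusters were made from these counts, so this match describes the labels and does not check them. Pklr was lower in the Central nuclei of 6 of 6 mice, by a log2 ratio of -1.27 to -0.49, on 10 to 65 UMIs per mouse. In WT mice it was at 70.5, 62.7 and 41.7 CPM in Central nuclei and at 138, 103 and 93.0 CPM in the others. In HNKO mice it was at 22.9, 103 and 150 CPM in Central nuclei and at 52.5, 250 and 212 CPM in the others.

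Fbp1 was lower in Central nuclei in 5 of 6 mice and Gys2 in 5 of 6, with HNKO 1 the exception for both. G6pc was lower in the Central nuclei of all 3 WT mice, at log2 ratios of -0.64, -0.40 and -0.46. In HNKO mice the G6pc ratios were 0.76, 0.02 and -1.51. Thus the Central nuclei held more G6pc than the rest in HNKO 1, as much in HNKO 2 and less in HNKO 3. Pck1 differed little with position, with log2 ratios from -0.63 to 0.15 and no common direction. Fbp2 was lower in Central nuclei in 6 of 6 mice but on only 0 to 11 UMIs each.

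**Figure D4:**
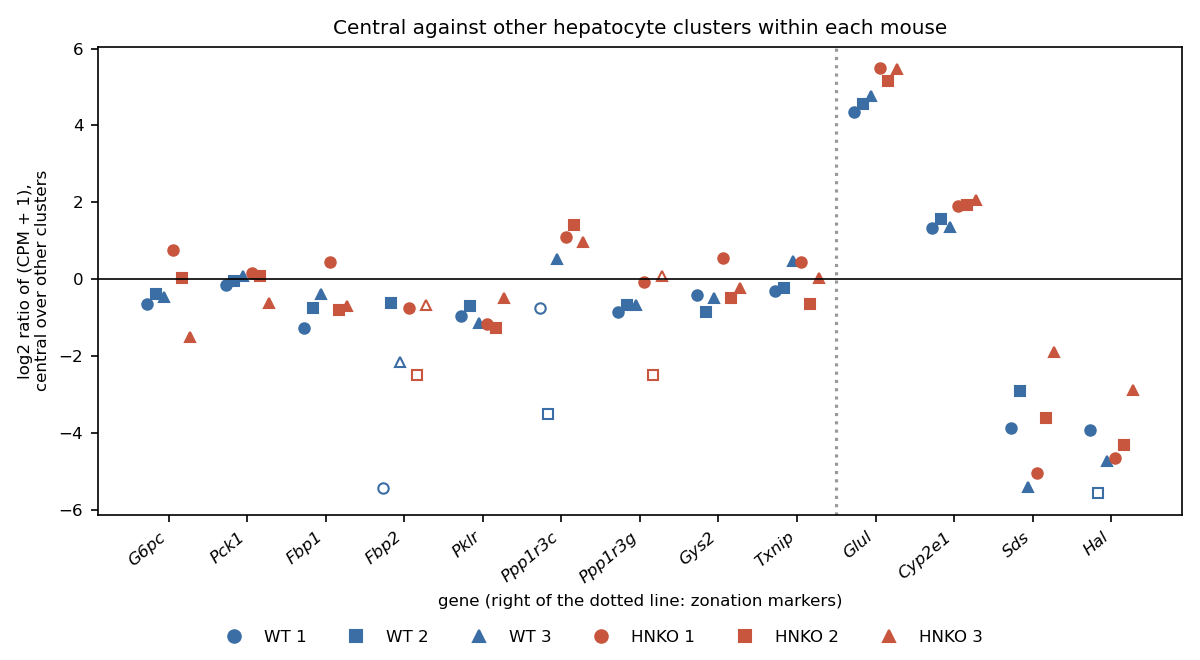
Log2 ratio of (CPM + 1) in Central over other hepatocyte nuclei of the same mouse (y axis) for the 9 genes and 4 zonation markers (x axis), with 1 point per mouse and open points where the Central nuclei held 3 UMIs or fewer. Pklr lies below 0 in all 6 mice, from -1.27 to -0.49, whereas G6pc of HNKO 1 lies above 0 at 0.76 and that of HNKO 3 below it at -1.51.

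Over the 22 sums the levels of G6pc and Pck1, as log2(CPM + 1), went together with a Pearson r of 0.89, and Ppp1r3g and Gys2 had an r of 0.81. Pck1 and Ppp1r3c ran opposite, with an r of -0.67. Fbp1 and Fbp2, neighbours in the genome, had an r of 0.21. These sums share mice, libraries and clusters, and the 3 sums of HNKO 3 weigh heavily in them, so the coefficients are descriptions.

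The genes whose log levels were most like those of Pck1 among 5248 genes were Errfi1 (r = 0.96), a feedback inhibitor of epidermal growth factor receptor signalling, Slc38a2 (0.96), an amino acid transporter, and Herpud1 (0.95), of endoplasmic reticulum stress. Each of these was also lowest in HNKO 3. Errfi1 was at 5531, 5012 and 5352 CPM in WT mice and at 5331, 4763 and 1148 CPM in HNKO mice. For G6pc the closest were Irf2bp2 (0.93), Arl4d (0.91) and Errfi1 (0.90).

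For Ppp1r3g the closest genes were Slc7a2 (0.90), a cationic amino acid transporter, Tat (0.86), tyrosine aminotransferase, and St3gal5 (0.86), a sialyltransferase. St3gal5 was at 2321, 2318 and 2680 CPM in WT mice and at 1960, 2479 and 173 CPM in HNKO mice. Gys2 was most like Uox (0.85), urate oxidase, Upp2 (0.85), uridine phosphorylase, and Cyp2j5 (0.82), and Fbp2 was most like St3gal5 (0.81), Asl (0.79) and Gys2 (0.79). Pklr was most like Fnip2, Eepd1 and Kng1 (each 0.84), and Fbp1 most like Ddah1 (0.86), Sp4 (0.85) and Tns3 (0.81). Ppp1r3c was most like an unnamed gene (0.85), Ldah (0.84) and Zfp780b (0.84). In mouse HNKO 3 these 3 genes were at 1.11-fold, 0.982-fold and 1.21-fold of the WT mean. Ppp1r3c was at 5.37-fold there, so they did not share its rise in that mouse. Txnip had the weakest likeness to any gene, with Fbf1 at 0.72, Entpd1 at 0.70 and Ppp1r3g at 0.69. Fbf1 was at 154, 141 and 152 CPM in WT mice and at 62.7, 86.8 and 7.45 CPM in HNKO mice.

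The median fold changes of the wider pathway lists lay near that of all genes. Of 113 other genes of glucose and glycogen metabolism, 95 passed the count filter in hepatocytes, and none passed FDR 0.05 in the edgeR test. An unadjusted p below 0.05 was reached by 4 of the 95, 2 higher and 2 lower, against 5.91% of all genes. The median log2 fold change over the 95 was -0.02, and that over all genes tested was 0.02.

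Of 14 further genes of gluconeogenesis 12 were tested, none reached an unadjusted p of 0.05, and their median log2 fold change was -0.05. The largest changes were in Slc37a4, the glucose 6-phosphate transporter that supplies G6pc, at -0.57 ± 0.26 (SE, edgeR FDR 0.82), and in G6pc3, the broadly expressed phosphatase, at 0.63 ± 0.38 (SE, FDR 0.82). Slc37a4 was at 78.0, 48.1 and 83.2 CPM in WT mice and at 49.3, 55.9 and 36.0 CPM in HNKO mice, which overlap.

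Of 28 genes of glycolysis and glucose uptake 20 were tested, with a median of 0.16. Slc2a1, a glucose transporter, was at 2.78, 2.63 and 1.68 CPM in WT mice and at 5.95, 2.50 and 7.31 CPM in HNKO mice, with a log2 fold change of 1.17 ± 0.46 (SE, edgeR FDR 0.82). These Slc2a1 values rested on only 7 to 51 UMIs per mouse. Pdk1, a kinase that inhibits pyruvate dehydrogenase, was at 131, 103 and 110 CPM in WT mice and at 63.0, 102 and 56.2 CPM in HNKO mice, with a log2 fold change of -0.64 ± 0.25 (SE, FDR 0.82). Pdk4, of the same family, had a log2 fold change of 0.79 ± 0.56 (SE, FDR 0.83).

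Of 28 genes of glycogen turnover beside the members 22 were tested, with a median of -0.06. Ugp2, which makes the UDP-glucose that Gys2 uses, was at 1752, 1559 and 1289 CPM in WT mice and at 865, 1029 and 1021 CPM in HNKO mice. On this TMM scale all HNKO mice were below all WT mice, by similar amounts and with HNKO 3 inside the range of the other HNKO mice. The log2 fold change was -0.66 ± 0.24 (SE, unadjusted p = 0.026, edgeR FDR 0.82). Ugp2 made up 7122 of 5495997 hepatocyte UMIs in HNKO 3 and 5364 of 4448104 in WT 3. Without TMM scaling HNKO 3 therefore lay above WT 3, and the genotypes overlapped. Ppp1ca, a catalytic subunit of protein phosphatase 1, had a log2 fold change of 0.44 ± 0.48 (SE, FDR 0.87), and of 0.15 without HNKO 3.

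All 30 regulators were tested, and none reached an unadjusted p of 0.05 (median -0.09). Foxa2, a forkhead factor of hepatocytes, was at 0.88 ± 0.56 (SE, edgeR FDR 0.82), with 29.8 CPM in HNKO 3 and 5.46 to 16.0 CPM in the other mice, and it was at 0.21 without HNKO 3. Arrdc4, an arrestin related to Txnip that also responds to glucose, was at 28.7, 24.7 and 13.5 CPM in WT mice and at 7.77, 12.1 and 18.5 CPM in HNKO mice, with a log2 fold change of -0.79 ± 0.38 (SE, FDR 0.82) and -1.14 without HNKO 3. Of 13 genes of fructose and pentose phosphate metabolism 11 were tested (median -0.06), with Pgd, 6-phosphogluconate dehydrogenase, at 0.91 ± 0.37 (SE, FDR 0.82) and Taldo1, transaldolase, at 0.54 ± 0.33 (SE, FDR 0.82), or 0.34 without HNKO 3.

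HNKO 3 was more than 2-fold lower than each other mouse for 4 of the 95 genes, near the 3.50% of all genes, and 3 of them are named here, after their values were seen. Got1, the aspartate aminotransferase, was at 197 CPM in HNKO 3 and at 1180 to 1633 CPM in the other mice. Ppargc1a, a coactivator that drives Pck1 and G6pc in fasting, was at 116 CPM in HNKO 3 and at 472, 666 and 941 CPM in WT mice. It was at 1186 CPM in HNKO 1 and at 445 CPM in HNKO 2. Irs2, an insulin receptor substrate, was at 52.4 CPM in HNKO 3 and at 138 to 335 CPM in the others. HNKO 3 was more than 2-fold higher than each other mouse for 2 of the 95, against 1.63% of all genes. These were Cebpa, at 34.8 CPM against 10.3 to 15.3 CPM, and Tkt, at 49.7 CPM against 15.9 to 23.0 CPM. No pattern of the lists is read from these genes.

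**Figure D5:**
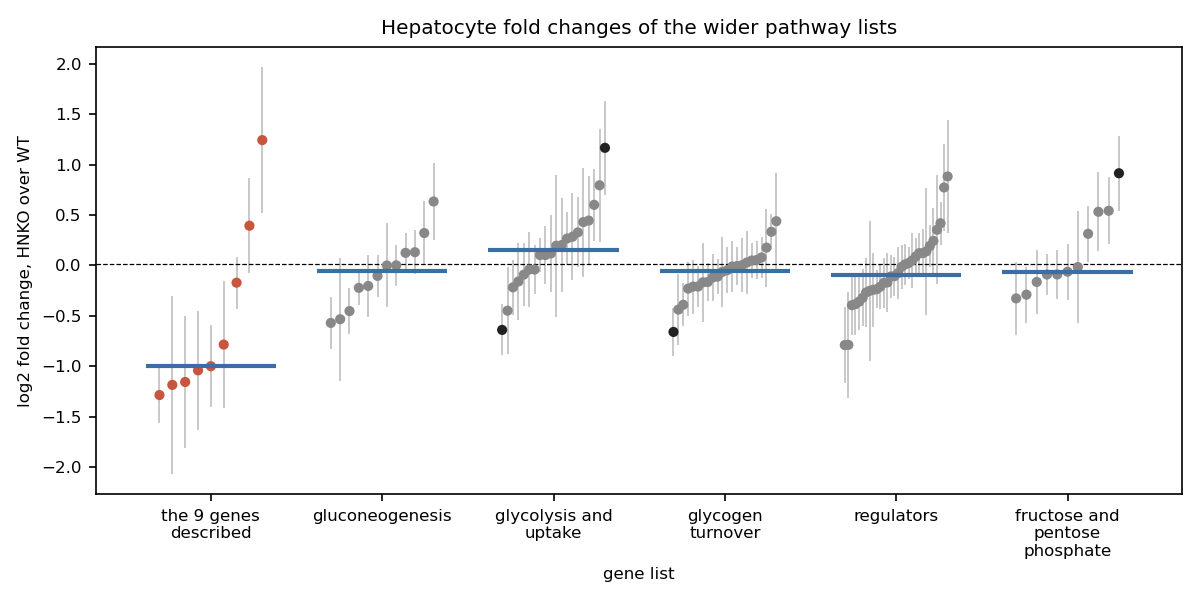
Log2 fold change of HNKO over WT in hepatocyte nuclei (y axis) for the 9 genes (red, a description) and the tested genes of 5 wider lists (x axis), with 1 point per gene, grey bars of ±1 SE, blue lines at the medians and a dashed line at the median of all genes. Black points mark unadjusted p below 0.05, and the list medians lie between -0.09 and 0.16 while that of the 9 genes lies at -1.00.

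Endothelial and stellate nuclei, in which Alb-Cre is not expected to act, were not used to choose the genes, so the test over all genes was read there. Hepatocyte markers were seen in both types (below), so hepatocyte RNA can carry the hepatocyte contrast into them. The fold changes of G6pc, Pck1, Fbp1 and Gys2 there are therefore a description and no separate test. They held 245 and 171 nuclei, and 0 of 2743 (0%) and 0 of 2266 (0%) genes passed FDR 0.05 in edgeR, with 104 and 160 at an unadjusted p below 0.05 and 1 DESeq2 call in each. Txnip was at 138, 151 and 159 CPM in endothelial nuclei of WT mice and at 81.3, 93.2 and 140 CPM in those of HNKO mice, on 10 to 21 UMIs per mouse. HNKO 3 lay above the lowest WT mouse, and the log2 fold change was -0.55 ± 0.37 (SE, edgeR FDR 1.00). Its mean endothelial level was 126% of the hepatocyte mean in WT mice and 198% in HNKO mice, without TMM scaling.

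G6pc, Pck1, Fbp1 and Gys2 also passed the filter in endothelial nuclei, with log2 fold changes of -0.81, -0.78, -0.17 and -0.60 and an edgeR FDR of 1.00 for each. G6pc there ranged from -1.93 without HNKO 1 to -0.47 without HNKO 2, HNKO 3 or WT 2. Their mean levels reached 20.1% to 28.9% of the hepatocyte level among WT mice, and 22.3% to 31.2% among HNKO mice. The 7 hepatocyte markers stood at 27.9% and 31.4% of their hepatocyte level in the same nuclei of WT and HNKO mice, close to the share of these 4 genes, and the part of hepatocyte RNA in their endothelial levels was not tested. Fbp2 gave 0 UMIs in 81 endothelial nuclei of WT mice and 3 in 164 of HNKO mice.

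In stellate nuclei only G6pc, Pck1 and Gys2 passed the filter, with log2 fold changes of 0.99 ± 0.70, 0.25 ± 0.54 and -0.52 ± 0.82 (SE, edgeR FDR 0.81, 0.96 and 0.94). The counts were small, with 0 to 37 G6pc UMIs per mouse, and the hepatocyte markers stood at 11.5% of their hepatocyte level in WT mice and at 21.9% in HNKO mice. Its part in the stellate values was not tested either.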

How the data were processed

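Nuclei of each mouse were hashtagged, sorted (4250 per mouse per the labels), pooled and sequenced with 10x 3′ chemistry in 2 RNA pools and 2 hashtag pools. The authors demultiplexed with Cell Ranger 5.0.1, quantified with alevin on GRCm38, removed doublets by hashtag, and clustered and named the nuclei in Seurat. The deposited matrix holds estimated counts of UMIs per gene that the authors made with alevin, not normalized (10.1% of nonzero values were not whole, at a tolerance of 0.001), and the deposited hashtag table holds counts. The authors' table gives mouse, genotype and cell type. A deposited matrix of transformed values was not used. No further doublet caller was run.

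For every type, counts were added up over the nuclei of each mouse, rounded, and tested with edgeR 4.0.16 (filterByExpr, TMM, quasi-likelihood, Benjamini-Hochberg over all genes tested). The test was checked on simulated counts. Types needed 10 nuclei per mouse, and cluster sums 20. Counts are not corrected for transcript length, so genes are not ranked by level. Mice are the replicates. Named genes were all 9 members, the genes of each pathway list with an unadjusted p below 0.05 plus those with the 2 largest fold changes, and for members of at least 20 mean CPM over the cluster sums the 3 genes most like them. The members and lists were chosen with earlier results of these data known. Alternatives were DESeq2 1.42.0, RLE size factors, no count filter, a nucleus minimum of 2000 UMIs, limma 3.58.1 on the mean CPM over nuclei with a pseudocount of 1, each mouse left out, unthinned shares and cluster sums of at least 50 nuclei. Gene positions come from GENCODE for GRCm38 and promoters from RefSeq. A result for 1 further gene of the lists is not reported here.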

Additional observations from a re-analysis of the deposited data

Results flagged for a closer look

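G6pc is listed because its HNKO mice lay on opposite sides of the WT mean in hepatocyte and stellate nuclei. In hepatocytes all 3 HNKO mice were below the WT mean of 1656 CPM, at 1417, 783 and 218 CPM. In stellate nuclei all 3 were above the WT mean of 79.5 CPM, at 267, 146 and 82.9 CPM, on 37, 17 and 9 UMIs, while the WT mice held 11, 0 and 5 UMIs. The log2 fold changes differed by 2.03, and this difference was not tested. The stellate value of 0.99 ranged from 0.45 without HNKO 1 to 2.07 without WT 1. Hepatocyte markers in stellate nuclei were at 11.5% of the hepatocyte level in WT mice and 21.9% in HNKO mice. With 3 mice per genotype no group was large enough for the test of outlying samples.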

How the results depend on the processing

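The count of genes past FDR 0.05 in hepatocytes, 0 in edgeR, was 35 with no count filter and 21 in DESeq2, and it ranged from 0 to 32 when each mouse was left out, with 32 without HNKO 2. In endothelial nuclei it was 16 with no filter and 1 in DESeq2, and 0 without any of the mice. In stellate nuclei it was 29 with no filter and 1 in DESeq2, and 0 to 47 when each mouse was left out, with 47 without HNKO 2 and 1 without WT 2. No gene of the pathway lists passed under any of these alternatives. The causes were not tested.

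Of 99 alternative hepatocyte fold changes of the 9 genes, 96 moved by less than the spread between mice and 3 changed sign: Fbp1 to 0.01 with the mean CPM over nuclei, Pklr to -0.09 without HNKO 2 and Ppp1r3c to -0.22 without HNKO 3. Leaving out each mouse gave -1.73 to -0.58 for G6pc, -1.19 to -0.29 for Pck1, -1.43 to -0.65 for Gys2, -0.09 to 0.80 for Pklr and -0.22 to 1.67 for Ppp1r3c. In endothelial nuclei G6pc ranged from -1.93 (without HNKO 1) to -0.47, and Fbp1 ranged from -0.40 to 0.15, with 0.07 without WT 2 and 0.15 without HNKO 1. In stellate nuclei Pck1 ranged from -0.28 (without HNKO 1) to 0.86, with -0.20 without WT 1, and Gys2 from -1.16 to 0.90 (without WT 2). The share of hepatocyte nuclei with an Fbp1 UMI differed by 3.97 percentage points (HNKO minus WT) over all UMIs, against -0.833 after thinning. Of the other 8 shares 5 moved by more than the spread between mice, among them Gys2 from -24.0 to -8.17 points, Txnip from -5.26 to -10.4 and Ppp1r3c from 2.61 to 8.46. The comparison within each RNA pool was not run, since nuclei could not be assigned to a pool. No paired analysis was possible because mice of the 2 genotypes share no replicate number and the pool numbers mark libraries that hold nuclei of all mice. Counts were low for Fbp2, Ppp1r3c and Ppp1r3g, and among the named genes of the lists for Slc2a1, Ppp1ca, G6pc3, Taldo1 and Pgd.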
